A study of Drosophila melanogaster with 51 samples.

Results

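HP1 peaks at the ends of genes in the chromosome arms of Drosophila melanogaster are the subject of this account. The members are the listed HP1 peaks whose middle lies in the arms, outside the pericentric parts and chromosome 4, and whose interval comes within 200 bp of either annotated end of any RefSeq gene. There were 203 such peaks among 612 HP1 peaks of the arms (33.2%, exact binomial 95% interval 29.4 to 37.1) and 1435 HP1 peaks in all. The peaks come from CUT&RUN on wing imaginal discs. In this assay a nuclease tethered to an antibody cuts out the chromatin that the antibody binds, and the freed fragments are sequenced. Wing discs are epithelial sacs of the larva from which the wings and the back of the thorax arise at metamorphosis.

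The series holds 51 libraries in 18 groups of genotype, antibody and, where given, fraction, each made from 20 or more discs of wandering third-instar female larvae kept at 25 °C. The files used are 3 peak lists that cover the series as a whole, so no value belongs to a single library, replicate spread could not be measured, depth per library is unknown and genotypes were not compared. The antibodies were to H3K9me3, HP1a, H3K27me3 and GFP, and 1 genotype is yw. In HWT and K9R, a histone transgene, with H3 wild-type or with its lysine 9 changed to arginine, stands in for the deleted histone cluster. HP1a-control and HP1a-chromo larvae come from mothers with the deficiency Df(2L)BSC228, mated to a yw father or to one with the HP1a chromodomain mutation. The others carry GFP-tagged HP1a as GFP-HP1a/GFP-HP1a, GFP-HP1a/+, CrGFP-HP1a or CrGFP-HP1chromo. HWT and K9R crosses also bring in twi-Gal4 and UAS-2xEYFP. All HP1 peak names carry ywdf, the supernatant fraction and the word merge, and the labels do not explain ywdf. Names in the H3K9me3 list point mostly to the pellet of an HWT library. The list of background regions is named for anti-GFP in the pellet of yw discs, whereas the genotype label of those libraries reads GFP-HP1a/+. Fold enrichment is the authors' value, the ratio of signal to the peak caller's expectation for a whole call, and several listed intervals can be parts of 1 call. The 203 members belonged to 193 calls. Intervals given with shares count listed peaks or genes only, and neighbouring peaks or genes are not independent.

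HP1a is a small chromatin protein whose chromodomain binds methylated lysine 9 of histone H3 and whose chromoshadow domain pairs with itself and recruits partners. It is best known from pericentric heterochromatin, where it helps keep transposons and inserted genes silent. In flies it is also found at sites in the euchromatic arms, some of them at transcribed genes and some without the histone mark.

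HP1 peaks of the arms lay near gene ends in a larger share than the spacing of annotated genes gives for intervals of their widths. Bases within 200 bp of a gene end made up 9.77% of the arms, and the middle base of 111 of the 612 arm peaks (18.1%) fell there. If intervals of the listed widths were set at every position of the arms, 18.0% of positions would meet the rule, beside the 33.2% found. This sets the listed peaks beside the annotation and is not a test, since peaks cluster. Of the other arm peaks, 289 touched a gene body with no end in reach and 120 lay between genes. The furthest member lay 196 bp from its gene end and the nearest peak outside the rule 206 bp, with 27 peaks between the limit and 300 bp.

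Members were present on all 5 arms. The arm of X held 50 of 124 arm peaks as members (40.3%) and that of 2L 35 of 97 (36.1%). For 2R it was 55 of 166 (33.1%), for 3L 33 of 115 (28.7%) and for 3R 30 of 110 (27.3%). Set against annotated genes, X had 18.9 and 2R 15.4 members for every 1000 arm genes, and 3R had the lowest figure, 7.26. Per Mb of arm the order of X and 2R was reversed, with 2.21 on X and 2.77 on 2R, and 3R was again lowest at 1.09.

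**Figure D1:**
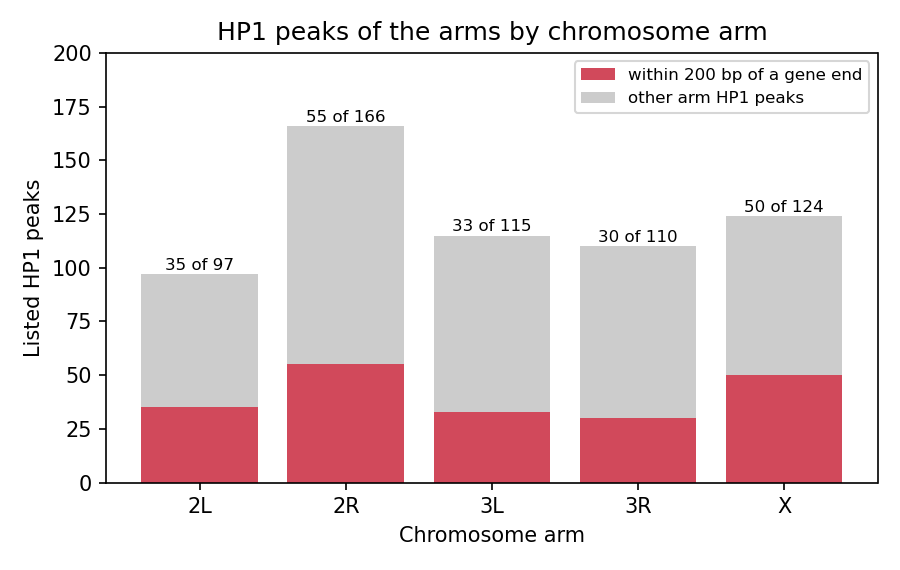
Bars give the number of listed HP1 peaks on each chromosome arm, split into peaks within 200 bp of a gene end (red) and the others (grey). The members range from 30 of 110 peaks on 3R to 55 of 166 on 2R, and take the largest share on X, 50 of 124.

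The rule fixes that members lie close to a gene end, and the distances within its reach were as follows. In 116 of 203 members (57.1%) a gene end lay inside the peak, in 62 the nearest end was 1 to 100 bp away and in 25 it was farther off. The gene table gives no strand, so an end is named by its coordinate, lower or higher, and not as the start or the end of transcription. By this naming 62 members reached lower ends alone, 70 reached higher ends alone and 71 reached at least 1 of each, so the 2 sides were reached in similar numbers. Both ends of 1 gene were in reach of 20 members, most of them short non-coding genes, and 9 members enclosed a whole gene.

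Seen from the protein-coding ends in reach, the middle of the peak lay outside the gene more often than inside it, at 145 of 219 ends (66.2%), although the rule reaches equally far to both sides. With members chosen by the middle base of the peak instead, it was 51 of 93 (54.8%), near an even split. These counts are of ends and not of peaks. Under the main rule, the peaks in reach of both facing ends of neighbouring genes, at 45 pairs, were counted at each end. Where the middle of such a peak lay between the genes it was outside at both ends, which adds to the lean. At 103 lower ends the peak's middle was inside the gene in 29 cases (28.2%, 19.7 to 37.9), and at 116 higher ends in 45 cases (38.8%, 29.9 to 48.3). The median position of the middle was 183 bp outside the lower ends and 152 bp outside the higher ends. At the boundary itself peaks covered 49.5% of lower ends and 41.4% of higher ends. At 250 bp outside the gene it was 70.9% and 62.9%, and at 250 bp inside 27.2% and 34.5%. Part of this shape is set by the rule, which takes up peaks that stop short of the end on either side.

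**Figure D2:**
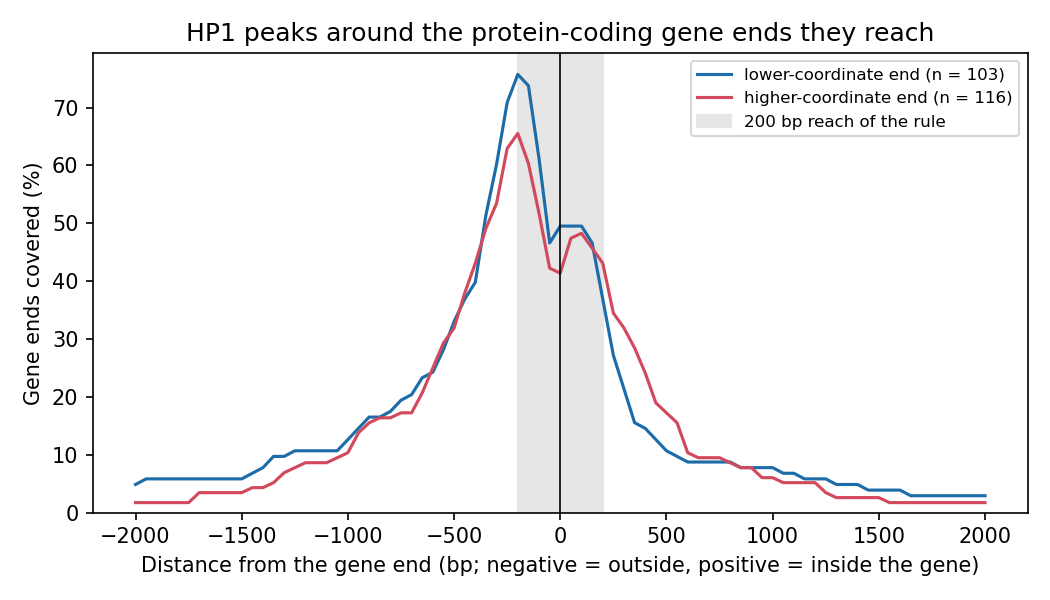
The share of protein-coding gene ends covered by the HP1 peak that reaches them (vertical axis, percent) is drawn against distance from the end (horizontal axis, bp, negative outside the gene) for 103 lower and 116 higher ends; grey marks the 200 bp reach. Both curves stand higher at 250 bp outside the gene (70.9% and 62.9%) than at 250 bp inside it (27.2% and 34.5%).

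The members reached 274 genes, which is 1.59% of the 17217 genes of the arms. Protein-coding genes made up 212 of these (1.56% of 13631), and lower ends were reached in 103 (0.756%), higher ends in 116 (0.851%) and both ends in 7 (0.0514%). Genes for long non-coding RNAs (lncRNA) contributed 54 of 1880 (2.87%), a larger share than the protein-coding one. The shares were lower for antisense RNAs (4 genes, 0.833%), pseudogenes (1 gene, 0.495%), miRNAs (1 gene, 0.4%), snoRNAs (1 gene, 0.377%) and tRNAs (1 gene, 0.345%). In all, 41 members (20.2%) reached no protein-coding gene.

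Protein-coding genes with HP1 at an end were longer than arm genes as a whole. Their median length was 3882 bp, against 2137 bp for all protein-coding genes of the arms. All arm protein-coding genes were sorted by length into 4 classes of nearly equal number. Of the shortest class 19 of 3411 genes were reached (0.557%, 0.336 to 0.868), of the next 35 of 3406 (1.03%), of the one after 67 of 3406 (1.97%) and of the longest 91 of 3408 (2.67%, 2.16 to 3.27). The share thus went up with each class of length. Genes over 20 kb formed 12.3% of those reached and 6.98% of all. Reached lncRNA genes had a median of 654.5 bp against 655 bp for all arm lncRNA genes, so the length difference was seen among protein-coding genes and not among these.

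**Figure D3:**
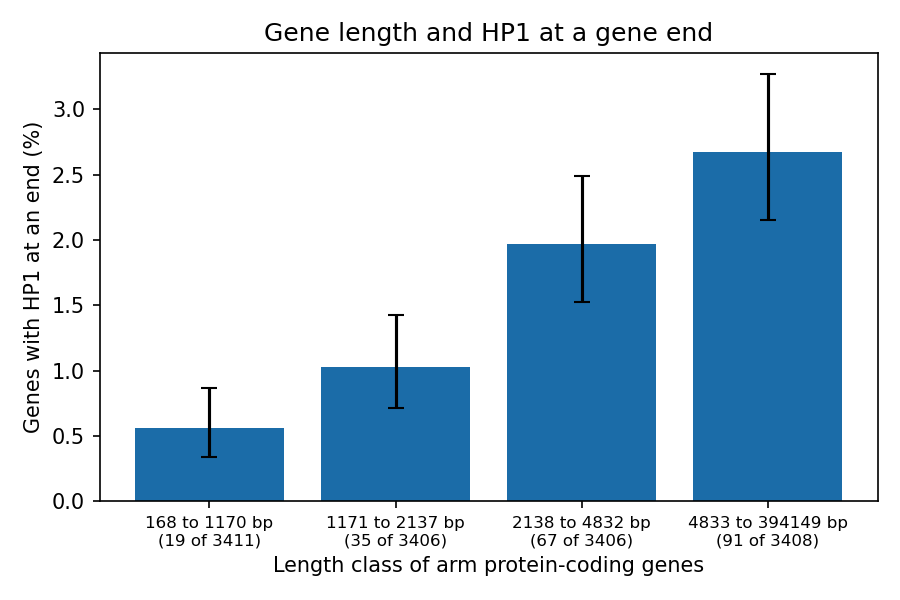
Bars give the percent of arm protein-coding genes with an HP1 peak within 200 bp of an end, by class of gene length, with exact binomial 95% intervals as error bars. The share climbs from 0.557% in the shortest class to 2.67% in the longest.

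The longest gene reached was jing at 119787 bp, a zinc-finger transcription factor gene, followed by CG43658 at 105012 bp and br at 89738 bp. The gene br encodes the Broad family of BTB zinc-finger proteins that act downstream of ecdysone. At the other extreme stood CG30016 at 501 bp, Brd at 532 bp and RpL39 at 579 bp. Brd encodes a small inhibitor of Neuralized in Notch signalling, and RpL39 a ribosomal protein. Long transcription factor genes and very short genes were thus both present.

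The strongest member lay at the higher end of nej, which encodes the acetyltransferase CBP, a coactivator of transcription. This peak, at X:9686846-9687128 (dm6), was 283 bp wide with a fold enrichment of 20.3, and the end of nej at 9687066 lay within it. Fold is a value of the whole call, and the highest fold among arm peaks inside gene bodies was also 20.3. At 2R:5691618-5692296 a peak of fold 18.7 covered the higher end of scaf, a serine protease homologue gene. Next came a peak of fold 17.5 over the facing ends of CG30440 and Ugt50B3, a glycosyltransferase gene, and a peak of fold 16.7 over those of ova and eEF1delta. The gene ova encodes a factor that works with HP1a in germline silencing, and eEF1delta a subunit of a translation elongation factor. All 4 lay far above the median fold enrichment of the members, 6.30.

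Other strong peaks at lower ends reached genes of varied roles. A peak of fold 16.5 began 26 bp inside REPTOR-BP, the bZIP partner of the nutrient-regulated factor REPTOR, at 2L:10264151-10264558, and covered 36.9% of this 1105 bp gene. The peak at ttk, a BTB zinc-finger repressor gene on 3R, had a fold of 12.7 and stopped 172 bp short of the gene. Peaks of fold 10.6 lay at B52, a splicing factor gene, and at mRpL3, a mitochondrial ribosomal protein gene. The uncharacterised genes CG30403 (fold 14.4), CG17508 (12.8), CG8245 (12.4) and CG13405 (12.2), the laccase gene stw (11.8) and Wdfy2 (10.5) complete this group of 12 lower ends, with Ugt50B3 and eEF1delta. Among genes reached at the higher end alone, after nej, scaf and CG30440, the strongest peaks were at CG6163 (fold 14.0), at Not3 (12.4), a subunit of the CCR4-NOT deadenylase, and at E(spl)m2-BFM (10.8), a Bearded family gene of the Enhancer of split complex.

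Among lncRNA genes, 3 members of fold 16.1 at 3L:19556677-19562922 were parts of 1 call and reached lncRNA:CR44677, lncRNA:CR44676 and lncRNA:CR45916. The lower end of lncRNA:CR43334, which the gene table also names pri-bantam, lay under a peak of fold 8.41 at 3L:627915-628547, and bantam is a growth-promoting miRNA of the wing disc. A peak of 2375 bp and fold 7.45 on X covered the lower end of lncRNA:flam, the flamenco piRNA cluster, and began 88 bp beyond the higher end of the neighbouring gene DIP1. All of these had a fold above the members' median of 6.30.

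Some members were within reach of a pair of neighbouring genes. Pairs were formed from genes consecutive by lower coordinate. A gene nested in the one before it was thus paired with the next gene in place of its host. For 45 pairs of neighbouring protein-coding genes, of 12593 such pairs in the arms (0.357%), 1 peak was within reach of both facing ends. The peak touched neither gene body of the pair in 10 cases, 1 of them in 24 and both in 11. Whether a pair is divergent, convergent or in tandem was not analysed here for want of strand. In 44 of the 45 pairs the genes were separated, by a median of 318.5 bp and from 30 to 5160 bp, and in CG12576 and Cp110 they overlapped. A short gap makes it easier for 1 peak to reach both ends, so these gaps cannot be set against the 542 bp median of all separated pairs. Counting a peak at either facing end, pairs 500 to 2000 bp apart carried HP1 most often, 54 of 2528 (2.14%, 1.61 to 2.78). Pairs under 200 bp apart did so in 18 of 2667 cases (0.675%, 0.400 to 1.06), and overlapping pairs in 9 of 1664 (0.541%). Facing ends that lie close together share part of their 200 bp reach, so less sequence can qualify. The shares are thus partly set by the rule and cannot be set against each other.

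**Figure D4:**
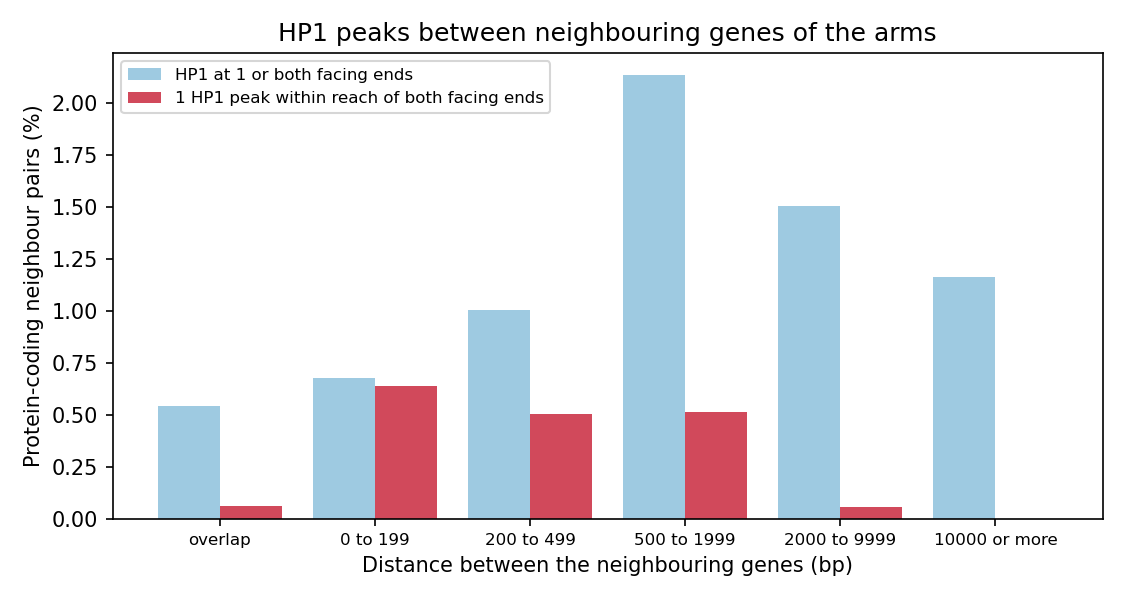
Bars give the percent of neighbouring protein-coding gene pairs of the arms, by the distance between them, with HP1 within 200 bp of 1 or both facing ends (blue) or with 1 peak in reach of both (red). Pairs 500 to 2000 bp apart have the largest blue bar, 2.14%. Close ends share part of their reach, so the bars cannot be compared across distances. In the closest separated pairs nearly all peaks reach both genes, which the 200 bp reach largely fixes.

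The strongest of these peaks, after those of CG30440 with Ugt50B3 and of ova with eEF1delta, was the 7327 bp peak that reached Not3 and CG8245. A peak of fold 10.6 lay in the 779 bp between Hrb87F and B52, which both encode RNA-binding proteins of splicing. Another of fold 10.5 reached pie and Wdfy2. On 2R a peak of fold 10 reached CG13563 and eEF5, a translation factor gene. A peak of fold 9.85 reached Npc1a, a sterol transporter gene, and the proteasome gene Prosalpha6, which lie 134 bp apart, and one of fold 9.83 covered the facing ends of hrm and CG1344. Further down the list came the pairs Cdk1 and mRpS7, mle and Src42A, yki and Gpat4, stg and CG45544, and Chi and MAN1. In these pairs Cdk1 and stg encode the mitotic kinase and its activating phosphatase, mle the RNA helicase of dosage compensation, yki the coactivator restrained by the Hippo pathway, Chi a LIM-domain cofactor and MAN1 a protein of the inner nuclear membrane.

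Members gathered in a few stretches. Taking members at most 50 kb apart as a run, 4 runs had at least 4 members and together held 34 of 203 (16.7%), while 119 members had no other within that distance. The longest run, at 2L:10220984-10423552, had 12 members, which reached 21 protein-coding genes. The runs were defined by their dense members, so these counts are a description. Its genes include Npc1a, Prosalpha6, ova, eEF1delta, mthl15, me31B, REPTOR-BP, Usp14, SamDC, Cdk1, mRpS7, Ir31a, RpS27A, pie and Wdfy2, of which me31B encodes a helicase that represses translation. Members there ranged in fold from 3.47 to 16.7, and 12 of the 15 HP1 peaks of the stretch were at gene ends. Ir31a and its neighbours RpS27A and Ip259 shared a single peak of 2568 bp.

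A run of 9 members at 2R:5604420-5701976 began 204 kb from the pericentric part of 2R and reached 10 protein-coding genes, Fis1, CG17508, hrm, CG1344, Not3, CG8245, kune, scaf, Cndp2 and vlc. That stretch also held 17 H3K9me3 peaks. The third run, at 2R:24029357-24068943, lies far out on the arm, and its 8 members reached 13 protein-coding genes. Among them are Chi, MAN1, tsr, which encodes the actin-severing protein cofilin, eEF5, RpL39, Rap2l, yki and Gpat4. No H3K9me3 peak was listed in this stretch, and every HP1 peak in it was at a gene end. On X, at 15746303 to 15868056, 5 members reached 8 protein-coding genes, CG8944, CCT6, Graf, mRpL3, Myb, CG46440, AlkB and Gapdh2, also without a listed H3K9me3 peak. Pooled over the runs, members had a median fold of 8.78 against 6.03 elsewhere, and a median width of 643 bp against 416 bp. This did not hold alike for each run. The median fold was 9.86 in the run near the pericentric part of 2R and 8.78 in that of 2L. It was 6.51 in the far run of 2R and 5.69 in that of X, the latter below the value elsewhere. Median widths were 1297, 503, 430.5 and 530 bp in the same order. Without the runs the median length of reached protein-coding genes was 5365 bp, against 3882 bp with them. The genes in the runs thus tended to be shorter than the other reached genes.

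The lists of regulators had members in most groups, each with few genes. Of 22 arm genes for wing disc selectors and patterning, 3 were reached (13.6%, 2.91 to 34.9), en, hh and brk, where 1.56% of protein-coding genes were. These genes encode the posterior selector Engrailed, the Hedgehog ligand and a repressor of Dpp targets. Peaks there were weak to moderate, with a fold of 6.76 at the higher end of en, 3.29 beside hh and 6.57 beside brk. Among 48 signalling genes there were 3 (6.25%), yki, the Hippo pathway scaffold gene kibra and the BMP receptor gene sax. The 34 zinc-finger and BTB genes had 3 (8.82%), ttk, jing and br, and the 29 trithorax and Polycomb group genes 2 (6.90%), ph-p and corto. These lists consist of long genes, with median lengths of 18449, 15340, 14116 and 7560 bp, and the longest of the 4 length classes of all protein-coding genes was reached in 2.67% of cases.

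Beside the 1.56% of all arm protein-coding genes, the other lists gave 1 of 24 stress and immediate response genes (4.17%), Tis11, an mRNA decay factor gene, and 2 of 19 housekeeping genes (10.5%), eEF1alpha1 and Gapdh2. No gene end was reached among 18 heterochromatin factor genes, which allows a share of up to 16.7%, or among 19 ecdysone response genes, which allows up to 15.8%. Lists this short could not show a lack, and the counts depend on what they hold. The ecdysone list did not hold br, which stood in the zinc-finger list, and the heterochromatin list held neither ova nor sov, and all 3 of these genes were reached. Grouped by their symbols after the values had been seen, cytosolic ribosomal protein genes gave 3 of 86 (3.49%), RpS27A, RpLP2 and RpL39, and translation factor genes 3 of 48 (6.25%), eEF1delta, eEF1alpha1 and eEF5. The corresponding counts were 2 of 72 (2.78%) for mitochondrial ribosomal proteins, 1 of 48 (2.08%) for proteasome subunits and 2 of 12 (16.7%) for Enhancer of split and Bearded genes. These families, too, stand beside 1.56% of all protein-coding genes. Genes known only by a CG number were reached in 48 of 5993 cases (0.801%), and they are shorter, with a median length of 1594 bp against 2137 bp.

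Most members had no listed H3K9me3. The HP1 and H3K9me3 lists come from unlike sources by their names, ywdf supernatant for HP1 and mostly HWT pellet for H3K9me3. A missing overlap therefore does not show that the mark was absent where the HP1 peaks were called. A shared base was found for 23 of 203 members (11.3%, 7.32 to 16.5), against 11 of 289 arm peaks inside gene bodies (3.81%, 1.92 to 6.71) and 8 of 120 between genes (6.67%, 2.92 to 12.7). Members were also the widest of the 3 classes, with a median of 439 bp against 338 bp and 311 bp, and a wider peak meets both the rule and another peak more easily, so these shares are not tested against each other. The share also moved with the limits set. It was 7.18% with the pericentric parts 0.5 Mb larger and 18.9% with them 0.5 Mb smaller, 6.31% for members chosen by their middle base and 4.43% where 50% of the peak had to be marked. Within 1 Mb of a pericentric part 10 of 24 members touched H3K9me3 (41.7%), and farther out 13 of 179 (7.26%). Members with H3K9me3 had a median width of 1470 bp, and those without 407.5 bp. The 33 H3K9me3 peaks they touched, 24.1% of the 137 in the arms, all carry the HWT name.

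Of these 23 members 12 lay on 2R, 9 of them within 1 Mb of the pericentric part, at Ugt50B3 and CG30440, CG17508, Not3 and CG8245, stw, vlc, Cndp2, CG1344 and hrm, kune and Fis1. Away from there the 2L run had 3, at ova and eEF1delta, at mthl15 and me31B, and at Ir31a. In these the marked sequence made up 58.6%, 62.5% and 22.7% of the HP1 peak. The only member wholly covered by H3K9me3 was a peak of 452 bp at the lower end of sov, at X:6756305-6756756 with a fold of 7.03. The gene sov encodes a zinc-finger protein that binds HP1a and takes part in heterochromatin silencing. Members marked in this way also lay at lncRNA:CR44676, lncRNA:CR43337, lncRNA:CR43334, lncRNA:flam, PI31, mlt, Ref1, ocm and Nop60B, ctrip and Hus1-like, and Kmn1 and Reepl1.

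Fold enrichment of the members ranged from 2.72 to 20.3 with a median of 6.30, close to 6.54 for arm peaks between genes and above 5.40 for those inside gene bodies, without a test. The 5 widest members were the 7327 bp peak over Not3, lncRNA:CR45472 and CG8245, the 4636 bp peak at the lower end of stw, a peak of 2978 bp at lncRNA:CR43337, the 2775 bp peak at CG17508 and the 2568 bp peak over Ir31a. Each of the 5 touched H3K9me3. Background regions from the anti-GFP profile were met by 2 members (0.985%, 0.120 to 3.51), at lncRNA:Vinr with lncRNA:CR44619 and at lncRNA:CR13130, against 8 of 289 and 5 of 120 in the other classes.

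**Figure D5:**
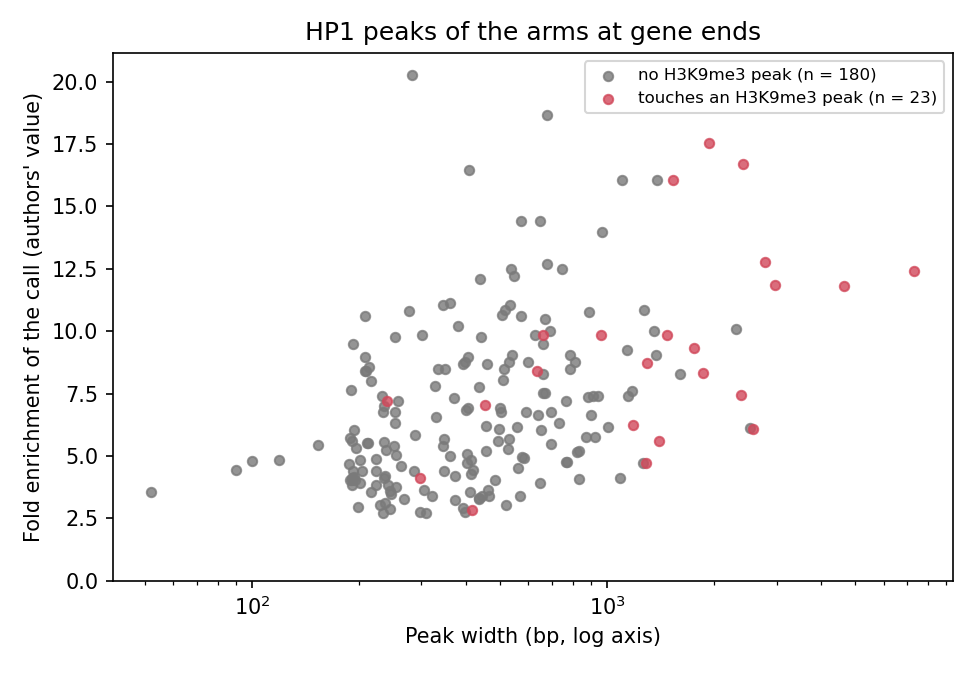
Each point is 1 of the 203 members, by peak width (horizontal, bp, log axis) and the authors' fold enrichment (vertical), in red where it touches an H3K9me3 peak (23) and grey where not (180). Red points lie mostly to the right, with a median width of 1470 bp against 407.5 bp.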

How the data were processed

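The deposited peak lists were used as they stand, 1435 HP1 peaks, 2245 H3K9me3 peaks and 500 background regions. MACS2 2.1.2, Bowtie2 2.3.4.1, bedtools 2.26, SAMtools 1.10 and build dm6 are listed in the submitters' processing notes. The authors' fold enrichment is a ratio, their −log10 q-value comes with each call, and the deposited score equals 10 times the −log10 q-value, rounded down, in all 1435 HP1 peaks. How calls were combined or trimmed into the lists is not given in the sources used here. Peak names give q30 with duplicates kept for HP1 and H3K9me3, and q5 with duplicates removed for the background.

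The arms are 2L below 22013558, 2R from 5400000, 3L below 22991510, 3R from 4600000 and X below 22638557. The gene ends are those of RefSeq on assembly Release 6 plus ISO1 MT, which is dm6. The table gives no strand or sequence, so starts and ends by strand, divergent pairs and promoter motifs, all planned, were not analysed here. The planned naming rule took the 12 strongest lower ends, 6 strongest genes reached at the higher end alone, 8 gene pairs, 10 marked members, 5 widest peaks, 3 longest and 3 shortest genes, and all list genes reached, with lower ends and neighbour pairs standing in for starts and divergent pairs. Other genes were named after their values were seen. Members and lists were chosen with earlier results of these data known, and no test was made. Overlap means at least 1 bp. Neighbour pairs are protein-coding genes consecutive by their lower coordinate. A gene nested in the one before it was not paired with that host. It was paired with the next gene in place of its host, as CG46440 with AlkB, so some gaps can include host gene sequence. Shares carry Clopper-Pearson 95% intervals, for counting error only, and limits for a count of 0 are 3 of the total. The assignment of peaks to gene ends was tested on simulated peaks outside lower ends, set at the 200 bp limit or 1 bp beyond it. Assignment to higher ends was not tested gene by gene. Python 3.11.15, pandas 2.3.3, NumPy 2.4.6, SciPy 1.17.1 and matplotlib 3.10.9 were used.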

Additional observations from a re-analysis of the deposited data

How the results depend on the processing

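No paired analysis was possible because no list holds a value per library, which also left no replicate to drop in turn. Of 90 alternative values 76 stayed within the interval of the reported value, or within 1.5 times for counts, and 14 moved. Taking the middle base of the peak in place of its nearest edge left 111 members and 93 protein-coding genes. With that choice 52.3% of members reached a lower end, 54.8% of protein-coding ends had the peak's middle outside the gene, the median fold was 5.48, the median width 347 bp, 6.31% touched H3K9me3, and 0 touched a background region, which allows up to 2.70%. The lean towards the outside of genes was therefore smaller for peaks centred at the end, where the share was near an even split. The H3K9me3 share was 4.43% when 50% or more of the HP1 interval had to be marked, 7.18% with pericentric parts 0.5 Mb larger and 18.9% with them 0.5 Mb smaller. With a reach of 500 bp the median width was 397 bp. Counting protein-coding genes alone, 0 members touched background, which allows up to 1.85%. Leaving out the runs, chosen after seeing the data, gave a median gene length of 5365 bp against 3882 bp. The cause of these shifts was not tested.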
